A study of Homo sapiens with 12 samples.

Results

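The genes described here build and regulate mitochondrial fusion: MFN1, MFN2, OPA1, OMA1, YME1L1, MIGA1, MIGA2 and PLD6. They were taken by symbol, as the 8 rows whose Ensembl identifiers map to these names among the 60649 genes in the count files, and all 8 were among the 16683 genes that passed the filter on low counts. The RNA came from spheroids grown from the human line SBC3, derived from a small cell lung cancer. The libraries fall into 4 groups of 3: control, teriflunomide, lurbinectedin, and both drugs together (the combination). Teriflunomide inhibits dihydroorotate dehydrogenase, an inner-membrane enzyme of pyrimidine synthesis, and lurbinectedin is a DNA-binding agent that interferes with transcription. Doses and treatment times are not given in the labels used here. The labels describe no genetic change in any group, so the groups share the parental line and differ by drug. They do not say that the 3 libraries of a group came from separate cultures, so p-values measure only the spread between these samples, which may be technical.

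Mitochondria fuse in steps that are carried out by separate proteins. The mitofusins MFN1 and MFN2 are GTPases that tether and merge outer membranes, and OPA1 is the GTPase of the inner membrane, where it also holds cristae together. The inner-membrane proteases OMA1 and YME1L1 cut OPA1 into short forms, and OMA1 does so under mitochondrial stress. The mitoguardins MIGA1 and MIGA2 sit on the outer membrane and act with PLD6 (MitoPLD), a phospholipase that makes phosphatidic acid from cardiolipin there. Fission, driven by the dynamin DNM1L, works against these steps.

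Total counts per library ran from 23206414 to 33222162. The share of counts from mitochondrially encoded genes was 6.26% to 7.17% in the controls and 13.8% to 17.0% with lurbinectedin. It was 8.42%, 8.43% and 22.6% in teriflunomide replicates 1 to 3 and 14.6%, 24.9% and 13.1% in combination replicates 1 to 3, so teriflunomide replicate 3 and combination replicate 2 stood apart. Of the markers that define the labelled cell type, EPCAM, CDH1, KRT18, INSM1, NCAM1 and CHGA were at or near 0 CPM (counts scaled to library size) in every group, while KRT8, SYP, NEUROD1 and YAP1 were detected. The 6 neuroendocrine markers summed to 20.3 to 21.7 CPM in control and 31.9 to 34.3 CPM with lurbinectedin, where mean SYP went from 16.8 to 30.9 CPM and mean NEUROD1 the other way, from 4.02 to 1.62 CPM. Mean KRT8 went from 243 to 422 CPM and mean YAP1 from 246 to 64.8 CPM. The 4 stromal markers, mostly COL1A1 and COL1A2, summed to 519 to 549 CPM in control and 186 to 220 CPM with lurbinectedin. The part of these marker shifts in the results below was not tested, and the 3 immune markers summed to at most 0.096 CPM in any library.

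Promoter sequence was at hand for 6 of the 8 genes (MFN1, MFN2, OPA1, OMA1, MIGA1 and MIGA2). The windows of 4 are printed: the mitofusins MFN1 and MFN2, which moved in opposite directions with lurbinectedin, and OPA1 with its protease OMA1, which were both lower. Each is the RefSeq sequence of GRCh38.p14 from 250 bases before to 50 after the annotated start, 5′ to 3′ on the gene's strand, with motif matches in capitals. The motifs searched on both strands were the GC box GGGCGG, the CCAAT box CCAAT, the ETS core CCGGAA, the NRF1 core (GCGCA, any base, GCGC) and the TATA box TATAAA.
MFN1, chr3:179347459-179347758, + strand: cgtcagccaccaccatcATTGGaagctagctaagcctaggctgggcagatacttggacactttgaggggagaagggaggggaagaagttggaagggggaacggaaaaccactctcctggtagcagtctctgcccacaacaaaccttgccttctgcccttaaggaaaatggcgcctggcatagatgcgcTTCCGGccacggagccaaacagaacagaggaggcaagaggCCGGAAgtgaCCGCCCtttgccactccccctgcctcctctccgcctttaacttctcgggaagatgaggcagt
MFN2, chr1:11980194-11980493, + strand: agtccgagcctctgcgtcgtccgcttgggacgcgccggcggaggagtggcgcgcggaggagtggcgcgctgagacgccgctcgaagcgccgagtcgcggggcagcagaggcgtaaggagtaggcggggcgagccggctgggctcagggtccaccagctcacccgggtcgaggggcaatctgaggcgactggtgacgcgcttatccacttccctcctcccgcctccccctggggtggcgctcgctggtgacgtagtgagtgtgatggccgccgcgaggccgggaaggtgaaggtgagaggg
OPA1, chr3:193592958-193593257, + strand: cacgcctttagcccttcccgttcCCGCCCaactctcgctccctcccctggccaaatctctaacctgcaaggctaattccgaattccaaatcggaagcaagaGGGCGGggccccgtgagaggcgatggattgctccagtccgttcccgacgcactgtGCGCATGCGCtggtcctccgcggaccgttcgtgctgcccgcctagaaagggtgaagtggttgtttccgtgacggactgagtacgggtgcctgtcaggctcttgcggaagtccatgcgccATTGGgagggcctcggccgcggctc
OMA1, chr1:58546677-58546976, − strand: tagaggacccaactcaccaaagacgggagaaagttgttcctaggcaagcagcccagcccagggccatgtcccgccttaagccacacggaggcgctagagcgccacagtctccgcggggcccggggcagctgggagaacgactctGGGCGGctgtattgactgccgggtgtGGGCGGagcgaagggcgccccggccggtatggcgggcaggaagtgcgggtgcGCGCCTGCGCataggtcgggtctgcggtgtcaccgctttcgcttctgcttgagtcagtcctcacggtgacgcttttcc
The MFN1 window held 1 GC box, 1 CCAAT box and 2 ETS cores, and the MFN2 window held none of the 5 motifs. These 2 windows cover unlike regions. The MFN2 window, from 11980194, begins after the first counted exon base of MFN2, 11980181, so no sequence before that base was searched. The MFN1 window, from 179347459, begins before the first counted exon base of MFN1, 179347709. The OPA1 window held 2 GC boxes, 1 CCAAT box and an NRF1 core that reads as a match on both strands, and the OMA1 window held 2 GC boxes and 1 NRF1 core. Among 35116 promoters of the same length, 45.0% held a GC box, 34.6% a CCAAT box, 17.2% an ETS core, 5.78% an NRF1 core and 11.5% TATAAA. These matches describe letters in the windows. GC content was 57.0% for MFN1, 71.3% for MFN2, 63.0% for OPA1 and 66.0% for OMA1, against a median of 58.7% over all promoters. MIGA1, also lower with lurbinectedin, held only 1 ETS core, so the 4 lower genes had none of the 5 motifs in common. MIGA2, which was higher, held GC and CCAAT boxes in the windows of both its annotated starts, while MFN2, also higher, held none of the 5 motifs. The second MIGA2 window, from 129036684, begins after the first counted exon base of MIGA2, 129036621.

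With lurbinectedin the 8 genes split in both directions. OMA1, OPA1, MIGA1 and MFN1 fell to between 1.94-fold and 5.22-fold below control, PLD6, MFN2 and MIGA2 rose by 1.59-fold to 4.75-fold, and YME1L1, the most abundant per length, did not pass the test. All 8 genes had CPM values that did not overlap between the control and lurbinectedin libraries, as was so for 83.2% of all genes tested. A gene was called changed when its Benjamini-Hochberg adjusted p, over all genes tested by edgeR's quasi-likelihood test, was under 0.05. By this rule 7 of the 8 were called, beside 71.6% of all genes, so the number of calls alone does not set these genes apart. Lower calls made up 35.7% of all genes and higher calls 36%. In these bulk libraries, fewer cells that express a gene and less RNA per cell cannot be told apart. All levels are relative to the other RNA of the same library, and RNA per cell was not measured. A gene that rose in these values need not have risen per cell, and a level value need not mean unchanged RNA.

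**Figure D1:**
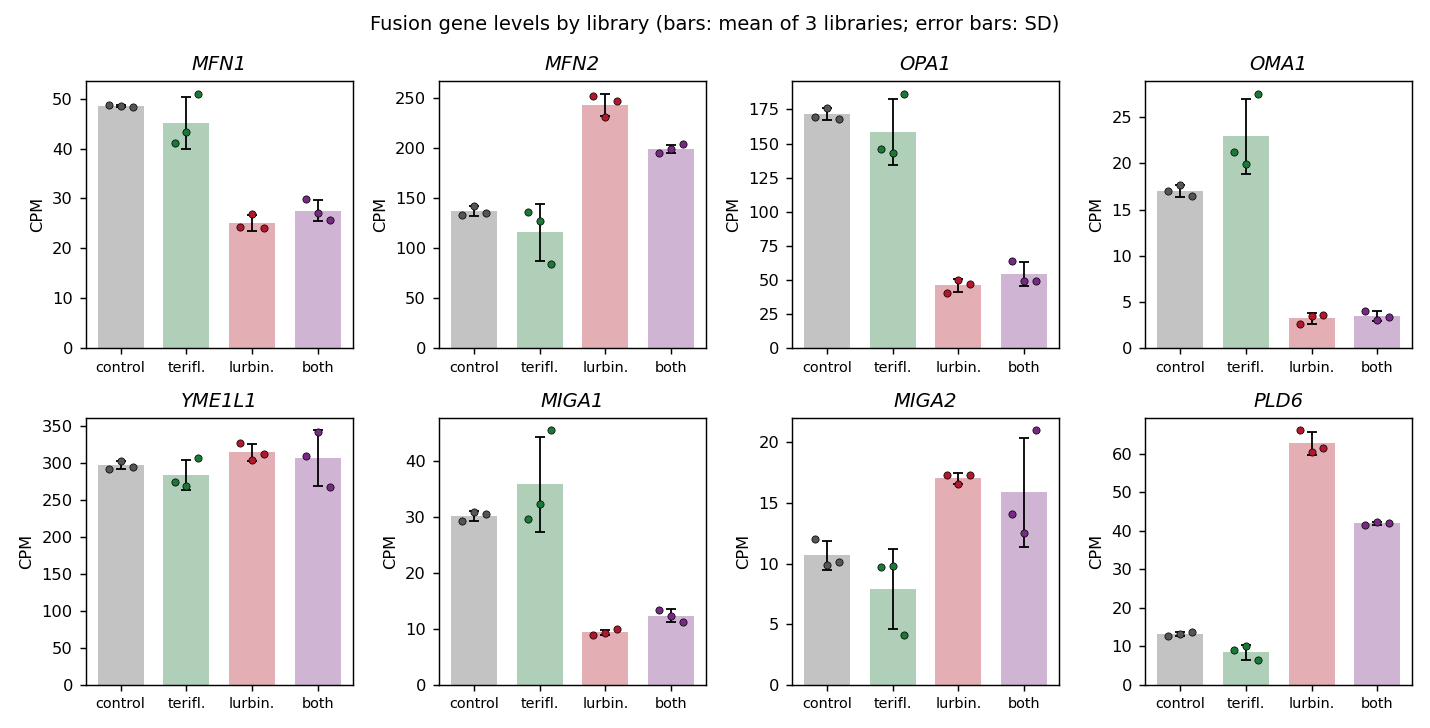
CPM of the 8 fusion genes by treatment group, 1 panel per gene on its own linear axis from 0, where points are libraries, bars the mean of 3 and error bars the SD. OMA1, OPA1, MIGA1 and MFN1 are lower in every lurbinectedin and combination library than in any control, PLD6, MFN2 and MIGA2 are higher, and YME1L1 lies between 268 and 343 CPM in all 12.

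The mitofusins, which share the work of outer-membrane fusion, moved in opposite directions. MFN1 (ENSG00000171109.19, GRCh38 chromosome 3, 179347709 to 179394936, + strand) was at 48.8, 48.6 and 48.4 CPM in the control libraries and at 24.3, 26.9 and 24.0 CPM with lurbinectedin. In the combination it was at 29.9, 27.2 and 25.6 CPM. Every library with lurbinectedin, alone or combined, was thus below every control library. The mean went from 48.6 ± 0.217 to 25.1 ± 1.57 CPM (SD, n = 3), or −0.95 in log2 units (SE 0.114, edgeR adjusted p = 3.80e-06). The combination differed from control by −0.82 (SE 0.113, edgeR adjusted p = 1.89e-05), with a mean of 27.6 ± 2.17 CPM.

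MFN2 (ENSG00000116688.18, chromosome 1, 11980181 to 12015211, + strand), which also tethers mitochondria to the endoplasmic reticulum, was at 133, 142 and 134 CPM in control and at 251, 230 and 247 CPM with lurbinectedin. The combination libraries were at 195, 199 and 203 CPM. They lay between the other 2 groups and overlapped neither. The lurbinectedin difference was 0.83 on the log2 scale (SE 0.141, edgeR adjusted p = 0.000118) and the combination difference 0.54 (SE 0.140, edgeR adjusted p = 0.00354). Scaled by library size alone, the combination difference was 0.38 with an edgeR adjusted p of 0.122.

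Because the mitofusins parted, the ratio of MFN1 to MFN2 counts per kilobase of exon within a library was computed after their values had been seen, and it is given with no test. It was 0.613 ± 0.0222 in control (SD, n = 3; range 0.588 to 0.631), 0.178 ± 0.0195 with lurbinectedin and 0.239 ± 0.0239 in the combination. By the mean of the log2 ratios, it was 3.45-fold lower with lurbinectedin and 2.57-fold lower in the combination, and the lurbinectedin range, 0.166 to 0.201, did not reach the combination's, 0.217 to 0.264. Such a ratio does not depend on how libraries are scaled. It compares RNA levels and says nothing of protein.

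OPA1 (ENSG00000198836.11, chromosome 3, 193593144 to 193697811, + strand), the inner-membrane fusion GTPase, had 169, 176 and 168 CPM in control. It had 40.4, 50.3 and 47.2 CPM with lurbinectedin and 64.1, 48.9 and 49.5 CPM in the combination. All 6 libraries with lurbinectedin were below the lowest control. OPA1 fell by 1.90 on the log2 scale with lurbinectedin (SE 0.139, edgeR adjusted p = 2.88e-08), or 3.73-fold, and by 1.66 in the combination (SE 0.137, edgeR adjusted p = 1.28e-07). Per exon length it was the second most abundant of the 8 in control, at 76.3 TPM (counts scaled by exon length and depth), and the fourth with lurbinectedin, at 13.1 TPM. The antisense gene OPA1-AS1 shares 208 bases (2.30%) of the OPA1 exon length but had a mean of at most 1 count in any group.

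The 2 proteases that cut OPA1 behaved differently from each other. OMA1 (ENSG00000162600.12, chromosome 1, 58415384 to 58546802, − strand), the stress-activated metalloprotease, was at 17.0, 17.7 and 16.4 CPM in control and at 2.57, 3.52 and 3.63 CPM with lurbinectedin. In the combination it was at 4.05, 3.07 and 3.32 CPM. It had the largest decrease of the 8 genes, −2.38 on the log2 scale (SE 0.174, edgeR adjusted p = 2.84e-08), or 5.22-fold, and −2.29 in the combination (SE 0.172, edgeR adjusted p = 4.83e-08). The lurbinectedin values rest on 53, 90 and 100 counts. DAB1, on the same strand, shares 257 bases (6.91%) of the OMA1 exon length and had a mean of at most 0.333 counts in any group.

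YME1L1 (ENSG00000136758.19, chromosome 10, 27110111 to 27155266, − strand), the ATP-dependent protease that cuts OPA1 without stress, was at 293, 303 and 295 CPM in control and at 328, 305 and 312 CPM with lurbinectedin. Its combination libraries, at 310, 343 and 268 CPM, lay on both sides of the control values. The fitted difference was 0.08 for lurbinectedin (95% interval −0.13 to 0.30, edgeR adjusted p = 0.455) and 0.05 for the combination (−0.16 to 0.26, edgeR adjusted p = 0.684). The intervals leave room for a change of that size in either direction. Scaled by library size alone, both differences were negative, at −0.15 and −0.13. The opposite-strand gene MASTL shares 443 bases (6.04%) of the YME1L1 exon length, was at 45.4 ± 1.13 CPM in control and rose by 0.29 with lurbinectedin (SE 0.114, edgeR adjusted p = 0.0344), and whether the counting used strand is not given in the sources used here.

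The ratio of OMA1 to YME1L1 counts per kilobase, also computed after the values were seen, went from 0.113 ± 0.00287 in control (SD, n = 3) to 0.0204 ± 0.00428 with lurbinectedin and 0.0226 ± 0.00433 in the combination. By the mean of the log2 ratios, these were 5.64-fold and 5.06-fold lower. In teriflunomide alone it was 0.158 ± 0.0164 and did not overlap control.

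The mitoguardins split in the same way as the mitofusins. MIGA1 (ENSG00000180488.15, chromosome 1, 77779624 to 77879539, + strand) was at 29.2, 30.8 and 30.4 CPM in control, at 8.96, 9.26 and 9.88 CPM with lurbinectedin and at 13.4, 12.3 and 11.2 CPM in the combination. The 3 groups did not overlap one another. The differences from control were −1.68 (SE 0.155, edgeR adjusted p = 2.96e-07) and −1.29 (SE 0.151, edgeR adjusted p = 4.09e-06). MIGA2 (ENSG00000148343.19, chromosome 9, 129036621 to 129072082, + strand) was at 12.1, 9.89 and 10.1 CPM in control and at 17.3, 16.5 and 17.3 CPM with lurbinectedin.

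MIGA2 rose by 0.67 with lurbinectedin (SE 0.266, 95% interval 0.10 to 1.24, edgeR adjusted p = 0.0352), the least certain of the 7 calls. It was lost when lurbinectedin replicate 1, 2 or 3 was left out (edgeR adjusted p = 0.0837, 0.0699 and 0.0805) or control replicate 2 or 3 (0.0997 and 0.0947). With scaling by library size alone it was 0.44 (edgeR adjusted p = 0.285). The combination libraries, at 14.1, 12.5 and 21.0 CPM, were all above control, but the difference of 0.57 did not pass (95% interval 0.00 to 1.14, edgeR adjusted p = 0.0688). It passed when only the groups compared were fitted (0.59, edgeR adjusted p = 0.0140), without an expression filter (0.52, 0.00968) and without combination replicate 2 (0.71, 0.0497), and was 0.32 (0.328) without combination replicate 3. The MIGA1 to MIGA2 ratio per kilobase was 1.77 ± 0.233 in control (SD, n = 3), 0.342 ± 0.0175 with lurbinectedin and 0.512 ± 0.157 in the combination.

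**Figure D2:**
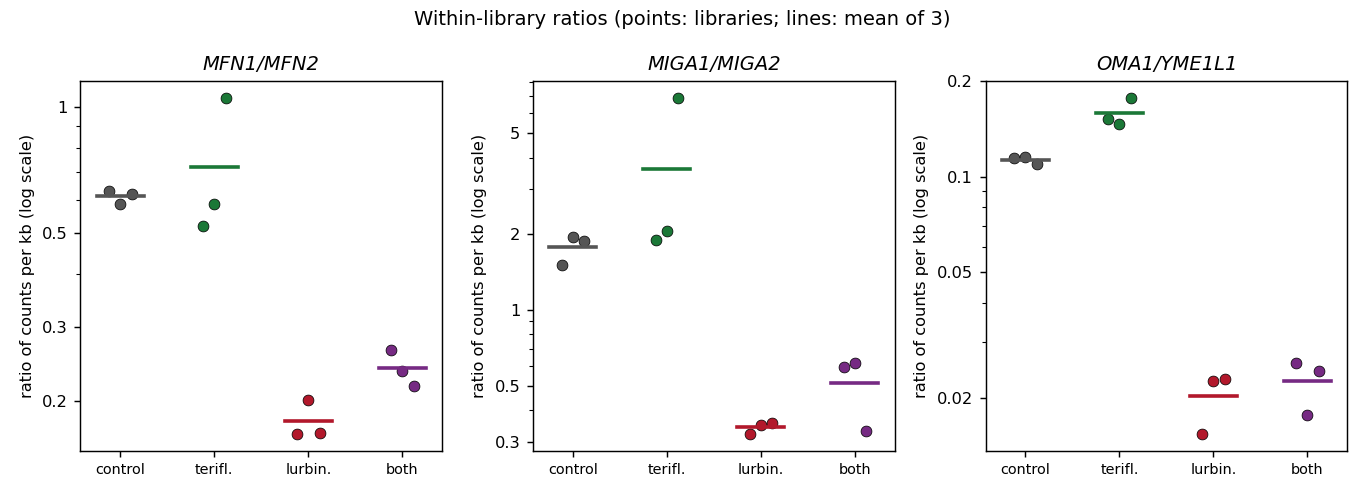
Within-library ratios of counts per kilobase of exon (log scale) for MFN1 to MFN2, MIGA1 to MIGA2 and OMA1 to YME1L1, with a point per library and a line at the mean of 3. Every lurbinectedin and combination library lies below every control; in the first 2 panels the highest point, at 1.05 and 6.91, is teriflunomide replicate 3.

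PLD6 (ENSG00000179598.6, chromosome 17, 17200995 to 17206333, − strand), the cardiolipin phospholipase, had the largest increase. It was at 12.7, 13.3 and 13.6 CPM in control and at 66.0, 60.4 and 61.6 CPM with lurbinectedin. In the combination it was at 41.5, 42.2 and 42.1 CPM. The 3 groups were widely apart, with replicates close together. The rise was 2.25 on the log2 scale with lurbinectedin (SE 0.145, edgeR adjusted p = 8.62e-09), or 4.75-fold, and 1.67 in the combination (SE 0.143, edgeR adjusted p = 1.80e-07), or 3.18-fold.

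Other genes overlap PLD6. MPRIP, on the opposite strand, shares 176 bases (6.83%) of its exon length and moved the other way, from 183 ± 3.87 CPM in control to 40.8 ± 5.81 CPM with lurbinectedin (SD, n = 3; log2 fold change −2.16, SE 0.144, edgeR adjusted p = 1.16e-08). ENSG00000264187, on the same strand, shares 450 bases (17.5%) and had mean counts of 2.67 in control and 13 with lurbinectedin. Reads in the shared bases could have been assigned to either gene or left out of both. Per exon length, PLD6 was the fifth of the 8 in control, at 20.6 TPM, and the second with lurbinectedin, at 62.2 TPM.

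Per exon length the control order was YME1L1 at 163 TPM, OPA1 at 76.3, MFN2 at 53.7, MFN1 at 32.9, PLD6 at 20.6, OMA1 at 18.4, MIGA1 at 12 and MIGA2 at 6.84 TPM. With lurbinectedin it was YME1L1 at 110, PLD6 at 62.2, MFN2 at 60.8, OPA1 at 13.1, MFN1 at 10.8, MIGA2 at 6.93, MIGA1 at 2.38 and OMA1 at 2.25 TPM. In control no neighbours in the order overlapped between libraries. With lurbinectedin PLD6 and MFN2 overlapped, as did OPA1 and MFN1, and MIGA1 and OMA1. In the combination YME1L1 was apart from MFN2 and PLD6 from OPA1, and the remaining neighbours overlapped. TPM was used only to order genes within a group.

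**Figure D3:**
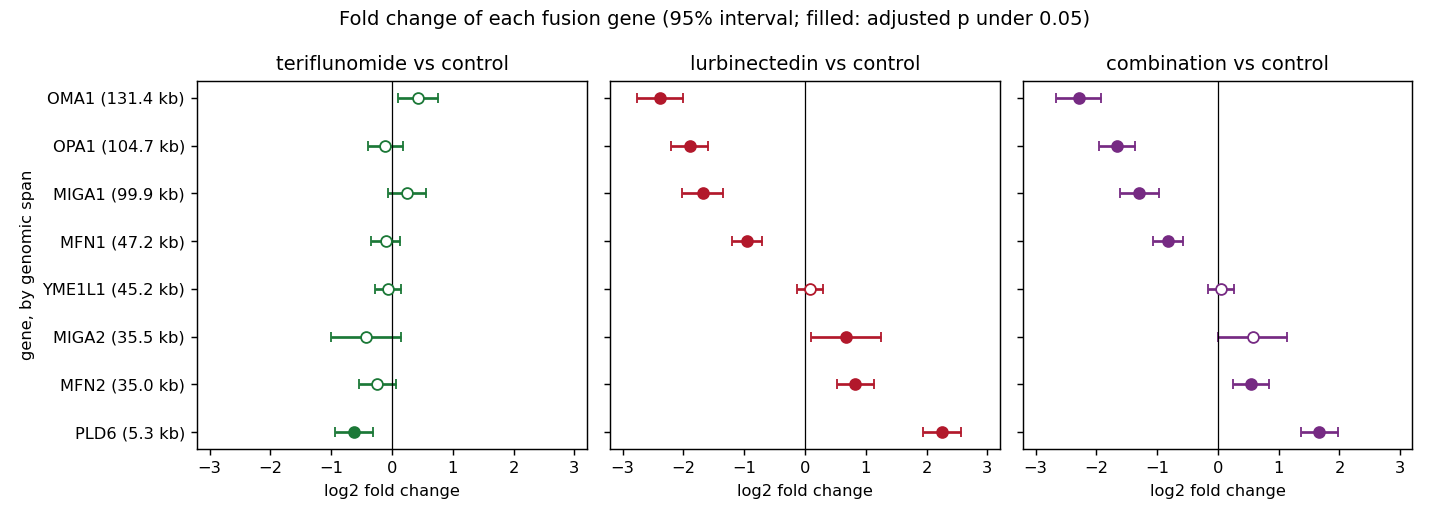
Log2 fold changes with 95% intervals for teriflunomide, lurbinectedin and the combination against control, 1 panel each, with the genes ordered by genomic span (in kb) and filled points for adjusted p under 0.05. OMA1, OPA1, MIGA1 and MFN1 lie left of 0 and PLD6 and MFN2 right of it with lurbinectedin and in the combination, and the YME1L1 intervals include 0 in all 3 panels.

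In the combination 6 of the 8 genes were called, PLD6 and MFN2 higher and OMA1, OPA1, MIGA1 and MFN1 lower, beside 68.4% of all genes. Of all genes, 34.1% were called higher and 34.4% lower. The combination and control libraries did not overlap for 7 of the 8, all but YME1L1, beside 77.2% of all genes. The comparisons share their control libraries. The median log2 fold change over the 8 genes was −0.44 for lurbinectedin and −0.38 for the combination, beside 0.05 and 0.04 over all genes tested. Without teriflunomide replicate 3 and combination replicate 2, an alternative chosen after seeing the data, 7 of the 8 were called in the combination beside 74.2% of all genes, the added gene being MIGA2 (0.71, edgeR adjusted p = 6.86e-05).

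The fold changes of the 8 genes were ordered by the length of genome they span, which is given as a description with no test. From first to last exon base, PLD6 spans 5.34 kb, MFN2 35.03 kb, MIGA2 35.5 kb, YME1L1 45.2 kb, MFN1 47.2 kb, MIGA1 99.9 kb, OPA1 105 kb and OMA1 131 kb. Ordered by span, the 8 lurbinectedin fold changes fell without exception, from 2.25 for PLD6 to −2.38 for OMA1 (Spearman's rho −1 over 8 genes). Across the 16651 nuclear genes tested, rho was −0.572, with the genes measured in the same libraries. In the combination the values were −0.976 and −0.546, and for the combination against teriflunomide −0.976 and −0.588. The sign was opposite for teriflunomide against control (0.810 and 0.219) and for the combination against lurbinectedin (0.833 and 0.354). These values include teriflunomide replicate 3 and combination replicate 2, which stood apart, and rho was not computed without them. Without teriflunomide replicate 3, PLD6 was still lowest and OMA1 highest. OPA1, at −0.25, was then below MFN2, at −0.058, while with all 3 libraries it was above MFN2. For the interaction they were 0.071 and 0.096.

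The 16651 nuclear genes tested were then placed in 5 classes of near-equal number by span, to read each fusion gene beside its span class. In the shortest class (0.053 to 5.26 kb) the median lurbinectedin log2 fold change was 0.69, and in the longest (82.9 to 2305 kb) it was −1.86, with 83.7% of genes called lower. OPA1, OMA1 and MIGA1 are in the longest class and stood at percentiles 48.9, 38.0 and 54.5 of its fold changes, inside its middle range. The median span of that class was 146 kb, longer than each of these genes. These percentiles thus do not place them among genes of their own length. MFN1 and YME1L1 share the class of 35.9 to 82.9 kb, with a median of −0.36, and stood at percentiles 26.3 and 68.6. MFN2 and MIGA2, in the class of 16.3 to 35.9 kb with a median of 0.28, stood at percentiles 75.2 and 68.7. Both lie near the long end of that class. The next class, with the median of −0.36, had an upper quartile of 0.26, below the fold changes of both. PLD6 was the farthest from its class: the median was 0.62 for 5.26 to 16.3 kb, and PLD6 stood 1.63 above it, at percentile 92.6. PLD6 lies near the short end of that class.

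**Figure D4:**
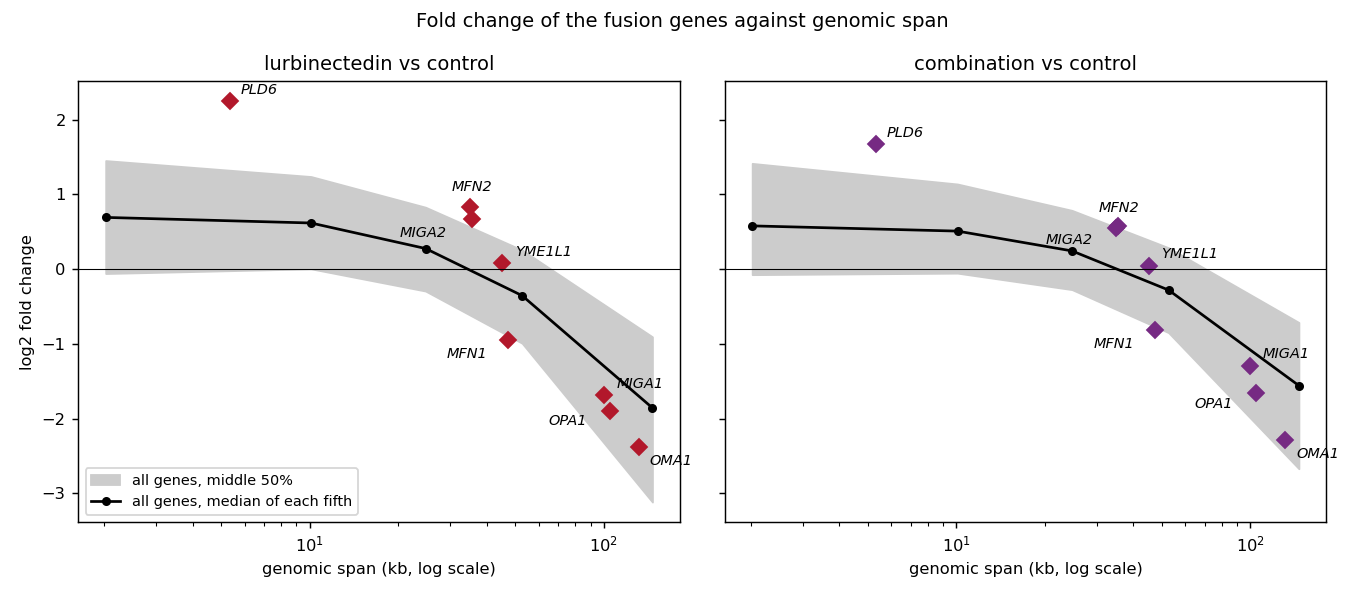
Log2 fold change against genomic span in kb (log scale) for the 8 fusion genes (diamonds), with lurbinectedin on the left and the combination on the right; the line joins the medians of all nuclear genes tested in 5 span classes and the grey band their middle 50%. The genes descend from PLD6 at 5.34 kb, which lies above the band, to OMA1 at 131 kb, and with lurbinectedin OPA1 and MIGA1, at −1.90 and −1.68, lie near −1.86, the median of their class. With lurbinectedin MFN2 and MIGA2 also lie above the band as drawn between classes, and MFN1 lies just below it. Within their classes these 3 stood at percentiles 75.2, 68.7 and 26.3. With lurbinectedin OPA1, MIGA1 and OMA1 lie below the line as drawn between classes, inside the band.

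Teriflunomide alone lowered 1 of the 8 genes. PLD6 was at 9.05, 10.1 and 6.33 CPM, below all 3 controls, a difference of −0.63 in log2 units (SE 0.145, 95% interval −0.94 to −0.32, edgeR adjusted p = 0.0237), or 1.55-fold lower. Of all genes tested, 6.01% were called, 3.88% as higher and 2.13% as lower. The call was lost when control replicate 1, 2 or 3 was left out (edgeR adjusted p = 0.0790, 0.0922 and 0.108). It was kept without teriflunomide replicate 3 (−0.46, edgeR adjusted p = 0.00890).

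The other 7 genes did not pass with teriflunomide. OMA1 was at 21.2, 19.99 and 27.5 CPM, above all controls, with a difference of 0.43 (95% interval 0.10 to 0.76, edgeR adjusted p = 0.113). MIGA2 was at 9.75, 9.81 and 4.09 CPM, below all controls, with −0.43 (95% interval −1.01 to 0.14, edgeR adjusted p = 0.333). Together with PLD6 these were 3 of 8 genes whose groups did not overlap, beside 36.8% of all genes tested. MFN1 (−0.11, 95% interval −0.35 to 0.13), MFN2 (−0.24, −0.54 to 0.06), OPA1 (−0.11, −0.40 to 0.17), YME1L1 (−0.06, −0.28 to 0.15) and MIGA1 (0.25, −0.07 to 0.56) had adjusted p-values of 0.298 to 0.710 in edgeR. The median of the 8 was −0.11, beside 0.03 over all genes.

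Teriflunomide replicate 3, the library with 22.6% mitochondrial counts, differed from replicates 1 and 2 at several of these genes. It had 83.5 CPM of MFN2 against 136 and 127, and 186 CPM of OPA1 against 146 and 143. It had 45.4 CPM of MIGA1 against 29.7 and 32.3. Its MFN1 to MFN2 ratio was 1.05, where replicates 1 and 2 had 0.521 and 0.589 and the controls averaged 0.613. Without this library, the teriflunomide difference was −0.058 for MFN2, 0.037 for MIGA1, −0.13 for MIGA2 and 0.27 for OMA1, each nearer to 0 than with all 3, and −0.20 for MFN1, −0.25 for OPA1 and −0.13 for YME1L1, each farther from 0. None of these 7 was called (edgeR adjusted p = 0.178 to 0.878).

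Adding teriflunomide to lurbinectedin gave no call among the 8 genes and 0 calls among 16683 with edgeR, where 2599 genes had an unadjusted p under 0.05 and the smallest adjusted p was 0.145. DESeq2 called 584 genes in this comparison. The teriflunomide comparison and this one use different libraries. PLD6 was lower again, with combination libraries at 41.5 to 42.2 CPM and lurbinectedin libraries at 60.4 to 66.0 CPM. The difference was −0.58 (SE 0.137, 95% interval −0.88 to −0.28, unadjusted p = 0.000908, edgeR adjusted p = 0.151), beside −0.63 for teriflunomide alone. DESeq2 called it (−0.57, adjusted p = 0.007). MIGA1 was 0.39 higher (95% interval 0.06 to 0.73, unadjusted p = 0.0245, edgeR adjusted p = 0.261) and MFN2 0.29 lower on the log2 scale (a difference of −0.29, 95% interval −0.59 to 0.01, edgeR adjusted p = 0.338), both with groups that did not overlap.

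PLD6, MIGA1 and MFN2 were 3 of the 8 with groups apart between lurbinectedin and the combination, beside 23.7% of all genes. The remaining 5 differed by −0.10 to 0.24. Without teriflunomide replicate 3 and combination replicate 2, again chosen after seeing the data, 4 of the 8 were called beside 21.5% of all genes: PLD6 at −0.58 (edgeR adjusted p = 0.000235), MFN2 at −0.28 (0.00636), MIGA1 at 0.39 (0.0148) and OPA1 at 0.31 (0.0324). The calls in this comparison thus depended on which libraries were kept. For these 4 genes the differences stayed close to those with all 12, while MIGA2 went from −0.099 to 0.050.

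**Figure D5:**
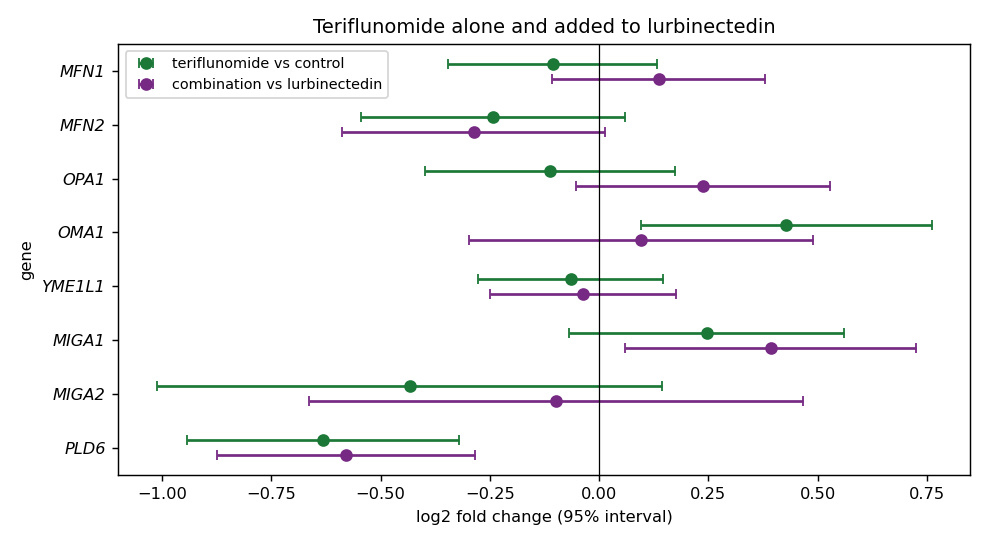
Log2 fold changes with 95% intervals of the 8 fusion genes for teriflunomide against control and for the combination against lurbinectedin. PLD6 lies at −0.63 and −0.58, left of 0 in both, and the remaining intervals include 0 except OMA1 in the first comparison and MIGA1 in the second.

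The difference between the effect of teriflunomide with and without lurbinectedin was tested as an interaction. It was called for 0 of the 8 genes, none of which had an unadjusted p under 0.05, and for 43 of 16683 genes (0.258%) with edgeR and 258 with DESeq2. For PLD6 it was 0.05 (95% interval −0.37 to 0.48), for OPA1 0.35 (−0.06 to 0.76) and for OMA1 −0.33 (−0.85 to 0.18). These intervals are wide, and a miss does not show that the drugs act independently. Without the 2 libraries that stood apart, OPA1 was called, at 0.55 (edgeR adjusted p = 0.0133), beside 10.9% of all genes.

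Adding lurbinectedin to teriflunomide gave calls for 7 of the 8 genes (3 higher and 4 lower), beside 70.9% of all genes, 35.2% higher and 35.8% lower. The groups did not overlap for 7 of the 8, all but YME1L1, beside 70.7% of all genes. OMA1 fell by 2.72 (SE 0.172, edgeR adjusted p = 9.51e-09), or 6.57-fold, OPA1 fell by 1.55, MIGA1 fell by 1.54 and MFN1 fell by 0.71. PLD6 rose by 2.30 (SE 0.147, edgeR adjusted p = 9.96e-09), or 4.92-fold, MIGA2 by 1.01 and MFN2 by 0.79. YME1L1 differed by 0.11 (95% interval −0.10 to 0.32, edgeR adjusted p = 0.321).

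Genes that act on OPA1 and the inner membrane changed in both directions. Of 12 genes of OPA1 processing and inner-membrane proteostasis, all tested, 5 rose and 1 fell with lurbinectedin, with a median of 0.13 beside 0.05 over all genes. These 6 calls of 12 compare with 71.6% of all genes called, 36% higher and 35.7% lower. SPG7, a subunit of the matrix AAA protease, went from 79.8 ± 4.71 to 147 ± 9.81 CPM (SD, n = 3; log2 0.88, edgeR adjusted p = 7.26e-06), and CLPP, the matrix peptidase, from 32.6 ± 1.14 to 55.3 ± 3.89 CPM (0.76, edgeR adjusted p = 5.90e-05). DNAJC19, an inner-membrane co-chaperone that binds prohibitins, fell by 0.65 (edgeR adjusted p = 0.000173). In the combination 3 rose and 4 fell, beside 34.1% and 34.4% of all genes. DELE1 and EIF2AK1, which relay OMA1 activity to the integrated stress response, were at 45.6 and 147 CPM in control and at 42.7 and 133 CPM with lurbinectedin, and neither was called in any comparison. With teriflunomide, where 6.01% of all genes were called, 1 of the 12 fell: PHB1, a prohibitin, went from 151 ± 1.39 to 114 ± 17.9 CPM (SD, n = 3; −0.41, edgeR adjusted p = 0.0450). The number of calls in this comparison varied with the settings, and whether the PHB1 call held under others was not examined.

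Among 11 genes of mitofusin turnover and outer-membrane partners, 2 rose and 6 fell with lurbinectedin, with a median of −0.23, beside 36% of all genes higher and 35.7% lower. In the combination 2 rose and 3 fell, beside 34.1% and 34.4%. HUWE1, a ubiquitin ligase that targets mitofusins, fell from 624 ± 53.3 to 223 ± 9.45 CPM (SD, n = 3; −1.48, edgeR adjusted p = 7.89e-08), and USP30, an outer-membrane deubiquitinase, by 0.60 (edgeR adjusted p = 0.000178). The 11 genes had a median span of 25.3 kb beside 24.7 kb over all genes tested, and these falls were not read against span. PINK1, a kinase of mitochondrial quality control, rose with teriflunomide from 13.4 ± 0.776 to 20.8 ± 2.85 CPM (SD, n = 3; 0.63, edgeR adjusted p = 0.0249), the 1 call of 11 there, beside 6.01% of all genes. Whether the PINK1 call held under other settings was not examined either.

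The MICOS complex and its partners, which shape the cristae that OPA1 also holds, had 8 of 9 genes lower and none higher with lurbinectedin, and likewise 8 and none in the combination. Of all genes, 35.7% and 34.4% were called lower in these comparisons. The medians were −0.88 and −0.75. CHCHD3, a MICOS subunit, fell from 84.8 ± 4.23 to 5.62 ± 0.733 CPM (SD, n = 3; −3.91, edgeR adjusted p = 7.45e-10), and CHCHD6, a related subunit, from 8.04 ± 0.620 to 0.486 ± 0.228 CPM (−4.06, edgeR adjusted p = 2.58e-08). At 0.486 CPM, CHCHD6 with lurbinectedin rests on fewer counts than OMA1 does, so the size of its fall is imprecise. APOO, also a MICOS subunit, fell by 1.46. Their median span was 74.8 kb beside 24.7 kb over all genes tested, with CHCHD3 at 297 kb and CHCHD6 at 256 kb. None of the 9 was called with teriflunomide, where the median was 0.00.

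Of 13 fission genes, 1 rose and 6 fell with lurbinectedin, with a median of −0.17, and none was called with teriflunomide. These 7 calls of 13 compare with 71.6% of all genes called with lurbinectedin, 36% higher and 35.7% lower. DNM1L, the dynamin that constricts mitochondria, was at 237 ± 6.41 CPM in control, 264 ± 60.2 with teriflunomide, 184 ± 9.01 with lurbinectedin and 212 ± 16.7 in the combination (SD, n = 3). It fell by 0.36 with lurbinectedin (SE 0.132, 95% interval −0.65 to −0.08, edgeR adjusted p = 0.0235) and did not pass with teriflunomide (0.16, edgeR adjusted p = 0.474) or in the combination (−0.16, edgeR adjusted p = 0.285). SPIRE1, an actin nucleator at fission sites, fell by 3.60 with lurbinectedin, DNM2, another dynamin, fell by 2.003, and MTFR1, a fission regulator, fell by 1.11. The 13 genes had a median span of 32.7 kb beside 24.7 kb over all genes tested, and these falls were not read against span.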

How the data were processed

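Messenger RNA libraries (KAPA mRNA HyperPrep, per the labels' protocols) of 12 SBC3 spheroid samples were analysed. The authors deposited 1 table of whole-number read counts per gene and library. The submitters' processing notes name fastp 0.23.2, STAR 2.7.9, Subread featureCounts and hg38, and the strand setting, the treatment of multi-mapping reads and the annotation release are not given in the sources used here. Symbols were matched for 60463 of 60649 identifiers (99.7%). Coordinates and exon lengths are those in the deposited tables. All 37318 identifiers with the same version in GENCODE 29 (GRCh38) had the same coordinates there.

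Genes were kept by edgeR's filterByExpr (16683), scaled by TMM and fitted with edgeR 4.0.16 (quasi-likelihood, robust; R 4.3.3) in 1 model of all 12 libraries, with 6 contrasts. Adjusted p-values are Benjamini-Hochberg over all genes tested, and calls are at 0.05. The biological coefficient of variation was 14.5%, and depth per library was 23206414 to 33222162 counts. CPM use the effective library size, and TPM use exon length. The fit was tried on simulated counts with a small set of genes changed up or down in the lurbinectedin group only. The simulation gave all genes and libraries the same spread. It thus differs from these data, where most genes were called with lurbinectedin and 2 libraries stood apart. DESeq2 1.42.0, other scalings, filters, library sets and a replicate block were alternatives. Named genes are the 8 fusion genes, DNM1L, at most 3 called genes per list and contrast with the smallest adjusted p, the 3 genes most correlated with MFN1, MFN2 and OPA1, and genes overlapping fusion-gene exons. DELE1 and EIF2AK1 fall outside this rule and were picked after their values were seen. A few genes that this rule or the marker lists hold are not reported here. The genes and lists were chosen with earlier results of these data known.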

Additional observations from a re-analysis of the deposited data

How the results depend on the processing

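The settings below were tried 1 at a time, beside leaving out each library. The number of fusion genes called stayed within 1.5 times for lurbinectedin and the combination against control and the combination against teriflunomide. Leaving out 1 library gave 6 to 7, 6 to 7 and 7 to 7 calls. For teriflunomide against control it fell from 1 to 0 at an adjusted p under 0.01, with scaling by library size, with only the groups compared and with a replicate block (PLD6 −0.64, edgeR adjusted p = 0.0537), and was 0 to 1 with 1 library left out. For the combination against lurbinectedin it was 1 with DESeq2, without an expression filter and with only the groups compared, and 4 without the 2 libraries that stood apart, a setting that also gave 1 for the interaction. Replicate numbers gave no sign of pairing: deviations of same-numbered libraries correlated at −0.402 to 0.144, and 1 of 18 pairs was over 0.1. Differently numbered pairs ran from −0.206 to 0.363, with 7 of 36 over 0.1. Deviations from a mean of 3 libraries are not independent of one another, so these values cannot show that pairing is absent. The block also ended the MIGA2 call with lurbinectedin (0.68, edgeR adjusted p = 0.0551). Calls over all genes for teriflunomide went from 1002 to 1907 with DESeq2, 230 at 0.01, 265 with library size, 1800 without a filter, 283 with only the groups compared, 415 with the block, 216 to 1555 with 1 library left out and 2757 without both libraries. For the combination against lurbinectedin they went from 0 to 584, 612 without a filter, 94 with only the groups compared, 0 to 259 and 3640. For the interaction they went from 43 to 258 with DESeq2, 5 at 0.01, 6 with library size, 195 without a filter, 8 with the block, 2 to 616 and 1839. Library size moved the median of all genes with lurbinectedin from 0.05 to −0.18, and the share of calls that were higher from 50.2% to 39.2%, with the combination from 49.8% to 41.0%. Differences near 0 changed sign, none of them called. With library size these were MFN2 in the interaction (0.075) and YME1L1 with lurbinectedin (−0.15), with the combination (−0.13) and between them (0.017), and YME1L1 in the combination was −0.014 without a filter. With 1 library or both left out, the ranges were −0.227 to 0.087 for the MFN2 interaction, −0.12 to 0.19 for the PLD6 interaction and −0.045 to 0.12 for the YME1L1 interaction. For the combination against lurbinectedin they were −0.36 to 0.050 for MIGA2, −0.028 to 0.19 for OMA1 and −0.12 to 0.051 for YME1L1, and for YME1L1 in the combination against control −0.047 to 0.14. The cause was not tested. At 53 to 100 counts, OMA1 with lurbinectedin was among the least deeply counted values of the 8 genes.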

Other observations

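Over the 12 libraries, log2 CPM of MFN1 correlated with that of OPA1 at r = 0.993 and with that of MFN2 at r = −0.924, which describes libraries in 4 treatment groups. The genes closest to MFN1 by Pearson's r over the 12 libraries, among 10434 candidates, were MBTD1 (0.998), GPSM2 (0.995) and SACM1L (0.994). Among those closest to MFN2 were NOL6 and GEMIN4 (0.997 each), and those closest to OPA1 were GTF2F2 (0.999), FAM120A (0.998) and PDS5A (0.998). Such values were common, since 2928, 1979 and 3035 genes had r above 0.9 with MFN1, MFN2 and OPA1.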
